A study of Mus musculus with 6 samples.

Results

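Ribosome biogenesis and RNA polymerase I genes were followed here as a set of 40 mouse genes, chosen by name for their part in ribosomal RNA transcription, processing and ribosome assembly. The choice was made with earlier results of these data known. All 40 were found by symbol among the 23420 rows of the count table. The cells were mouse embryonic fibroblasts (MEFs) of mixed 129/Sv-C57BL/6 strain that all carry E1A, an oncogene of adenovirus, and HrasG12V, an active form of Ras. The sgp53 cells carried the guide RNA sgp53(1), which targets p53; their lines 1 and 3 are labelled p53 null and line 2 functionally inactive. The control cells carried a non-targeting guide, sgNTC, and are labelled p53 wild-type. Each of 3 lines gave 1 library of each kind, so there were 3 libraries per group, and all cells had recovered for 24 h in 5% oxygen before harvest. The labels do not say whether a line was a clone or a pool, nor how the guides were delivered. RNA sequencing gave 29703837, 35860866 and 29564516 counts for sgp53 lines 1, 2 and 3, and 32536641, 27503577 and 28956001 counts for sgNTC lines 1, 2 and 3.

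RNA polymerase I transcribes the ribosomal DNA repeats in the nucleolus into a long precursor. Small nucleolar ribonucleoproteins (snoRNPs) then modify and help fold that RNA, and the processome and other assembly factors cut it and build the small and the large subunit around the pieces. The pathway is known to be limited by growth signals. Wild-type p53 is known to respond when it is disturbed, because free ribosomal proteins bind Mdm2, and p53 is also known to hold back RNA polymerase I.

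Levels are CPM, a gene's counts as a share of its library, scaled between libraries by TMM, and each mean is followed by its SD (n = 3 per group). Differences were tested with edgeR's quasi-likelihood F-test, with Benjamini-Hochberg adjustment over the 13044 genes tested and a call wherever the adjusted p was under 0.05; log2 fold changes are sgp53 over sgNTC. The targeted gene, Trp53, had 71.1, 72.0 and 113 CPM in sgp53 lines 1, 2 and 3, against 206, 277 and 253 CPM in sgNTC lines 1, 2 and 3. Trp53 was thus lower in sgp53 in every line (log2 fold change -1.52 with an SE of 0.21, edgeR adjusted p = 0.0168), a call made in 11 of 17 alternative analyses, with adjusted p from 1.12e-11 to 0.112. The call was lost without sgp53 line 1 or 2, without sgNTC line 3 and without any 1 line, while the log2 fold change stayed between -1.78 and -1.31. Of the fibroblast markers, Vim stood at 2502 to 3001 CPM in sgp53 and 2754 to 3354 CPM in sgNTC, while Col1a1 had 221 to 744 CPM in sgp53, highest in line 3, and 5.18 to 12.6 CPM in sgNTC, and Lum was at or near 0 in all libraries. Of the 10 fibroblast markers 9 were tested and 3, the collagen genes Col1a1, Col1a2 and Col3a1, were called higher and 0 lower, and the 10 summed to 3092 to 5381 CPM in sgp53 and 2850.5 to 3437 CPM in sgNTC. The 6 epithelial markers, mostly Krt18 and Epcam, summed to 88.7 to 132 CPM in sgp53 and 259 to 646 CPM in sgNTC, with Krt5 at 0. Krt18 was called lower (edgeR adjusted p = 0.0295, and 0.0534 with the line as a block). The 5 blood cell markers, mostly Cd68, summed to 3.83 to 4.25 CPM in sgp53 and 8.90 to 10.5 CPM in sgNTC, with the defining Ptprc at or near 0, and Cd68 was called lower (edgeR adjusted p = 0.0152). The 4 endothelial markers, mostly Kdr and with the defining Pecam1 near 0, summed to 1.64 to 1.82 CPM in sgp53 and 1.96 to 2.65 CPM in sgNTC. Kdr was not called (edgeR adjusted p = 0.311). The epithelial, blood cell and endothelial sums did not overlap between the groups, and their part in the results on ribosome biogenesis was not tested. These sums rest on few genes. Cdh1, Krt14, Ptprc, Itgam and Pecam1 had higher means in sgp53, all but Cdh1 near 0 CPM.

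A share of the ribosome biogenesis genes rose modestly in sgp53 cells, in every role from polymerase subunits to large subunit assembly. Of the 40, 13 were called higher and 0 lower, against 2.76% of all tested genes for higher calls and 3.69% for lower calls. The genes were chosen with earlier results of these data known, so such shares are not an unbiased comparison. Of 119 other genes of the pathway, chosen likewise, 6 were called higher. At an unadjusted p under 0.05, 26 members were higher and 0 lower, against 13.9% and 15.1% of all genes. DESeq2 called 21 members higher and 0 lower, against 9.17% and 9.00% of all genes, and limma-voom called 11 higher and 0 lower, against 2.18% and 3.17%. All 40 passed the filter on low counts, and the lowest count of any of them in a library was 1228. The 13 called genes changed between 1.26-fold and 1.40-fold, the median log2 fold change of all 40 was 0.27, and that of all tested genes was -0.01. The fold change was above 0 in 37 of the 40 and in 6327 of the 13044 tested genes. In 26 of the 40 every sgp53 library stood above every sgNTC library, which held for 17.8% of all tested genes, and the reverse held for 0 of the 40 and 19.0% of all tested genes. Summed over the 40 genes, the level was 11897, 10393 and 11817 CPM in sgp53 lines 1, 2 and 3 and 9590.4, 10085 and 9562 CPM in sgNTC lines 1, 2 and 3. The sums of the groups did not overlap, and sgp53 line 2 was the nearest to the sgNTC libraries. Ncl and Npm1, the most abundant of the 40, weigh most in these sums. Ncl had 1893 CPM in sgp53 line 2 and 2421 CPM in sgNTC line 2. CPM are shares of a library, so a larger share and more RNA per cell cannot be told apart, nor can fewer cells of a type and less RNA per cell.

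Many of the 13 calls were lost in other fits. With the line as a block, where 0.966% of all genes were called higher, 2 of the 40 were called, and leaving out both libraries of line 1, 2 or 3 left 0, where 0.0840%, 0.0911% and 0.0304% of all genes were called higher. Other scalings gave 13 (RLE, 2.88% of all genes), 13 (upper quartile, 3.28%) and 11 (library totals only, 2.27%), and testing without a filter gave 12 (1.85%). Leaving out sgp53 line 1, 2 or 3 gave 1, 10 and 4 called members, against 0.332%, 1.32% and 1.06% of all genes. Of the 10 without sgp53 line 2, 8 were among the 13, and Dkc1 and Ddx21 were called there in addition. Leaving out sgNTC line 1, 2 or 3 gave 7, 2 and 0 called members, against 1.90%, 0.730% and 0.181% of all genes. The median log2 fold change of the 40 stayed between 0.22 and 0.31 in those fits. Over the 17 alternatives the adjusted p of the 13 genes ranged from 1.32e-14 to 0.283. Replicates of these genes lay close together, with a median standard deviation of log2 CPM within groups of 0.09, against 0.14 over all tested genes. The abundance of the sets is unlike, since the lowest group mean was 47.4 CPM among the 40 and 0 CPM among all tested genes.

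**Figure D1:**
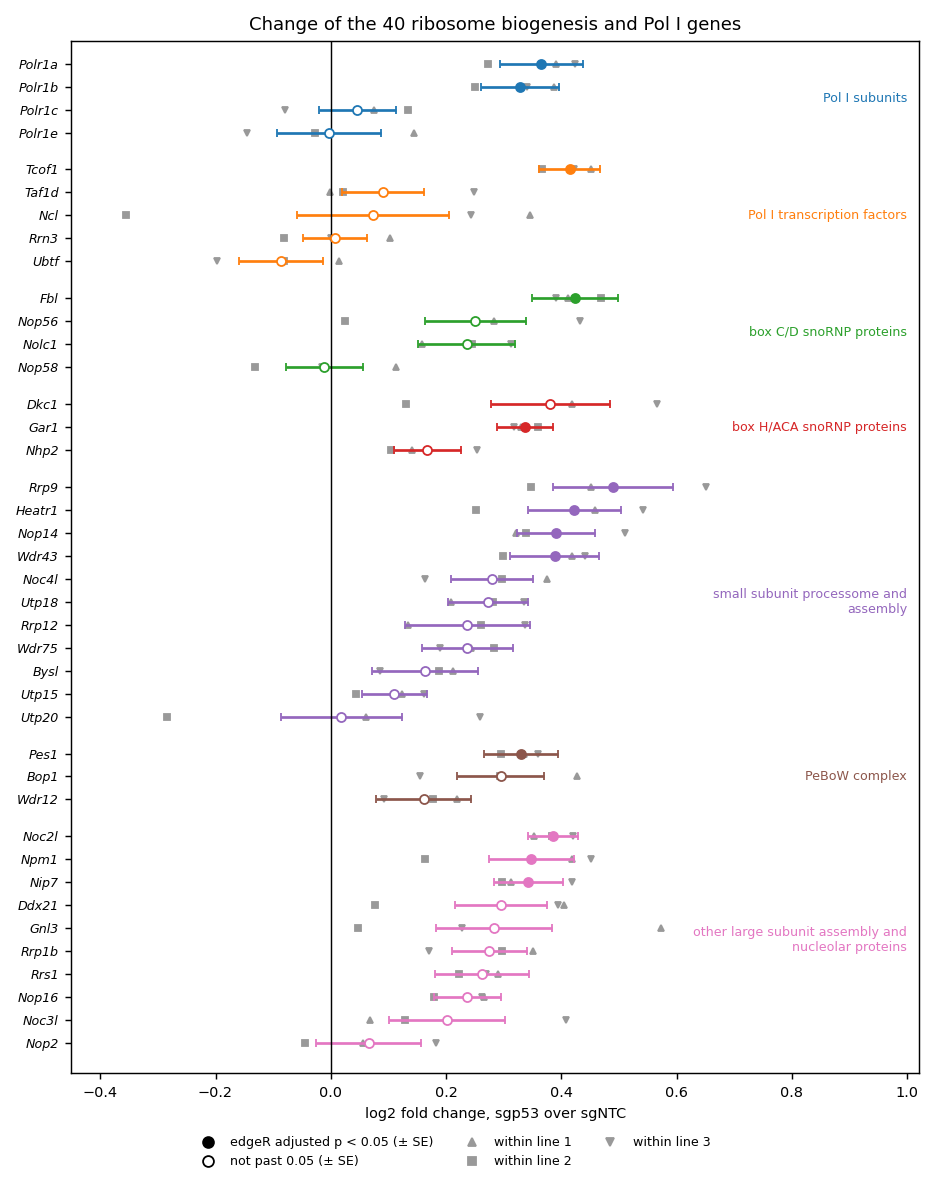
Log2 fold change of sgp53 over sgNTC for each of the 40 genes (circles, ± SE; filled where the edgeR adjusted p is under 0.05), grouped by role, with the log2 CPM difference within each line as grey marks. The 13 filled circles lie between 0.33 and 0.49, and the Pol I transcription factors other than Tcof1 lie near 0.

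Among the RNA polymerase I subunits, the large ones rose. Polr1a, the largest and catalytic subunit (GRCm38, chromosome 6, 71909053 to 71984935), had 307, 265 and 307 CPM in sgp53 lines 1, 2 and 3, against 234, 219 and 229 CPM in sgNTC lines 1, 2 and 3. Its means were 293 ± 24.1 CPM in sgp53 and 227 ± 7.44 CPM in sgNTC (SD, n = 3 each; log2 fold change 0.37 with an SE of 0.07, edgeR adjusted p = 0.0401, and 0.0676 with the line as a block). Polr1b, the second-largest subunit (chromosome 2, 129100995 to 129126594), had 127, 111 and 117 CPM in the sgp53 libraries, against 97.3, 93.0 and 92.1 CPM in the sgNTC libraries. The groups did not overlap for either gene, and Polr1b differed to a like degree (log2 fold change 0.33 with an SE of 0.07, edgeR adjusted p = 0.0431, and 0.0743 with the line as a block). Polr1c, a subunit shared with RNA polymerase III, had 69.8, 74.0 and 64.0 CPM in the sgp53 libraries, against 66.2, 67.4 and 67.7 CPM in the sgNTC libraries, and its groups overlapped (log2 fold change 0.05 with an SE of 0.07, edgeR adjusted p = 0.682). Polr1e, which encodes the PAF53 subunit, averaged 47.4 ± 5.45 CPM in sgp53 and 47.5 ± 0.974 CPM in sgNTC, with an edgeR adjusted p of 0.983. The difference between the subunits that rose and those that were not called was not tested.

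Of the 5 genes that act with the polymerase, Tcof1 rose. Tcof1 encodes treacle, a nucleolar protein that promotes ribosomal DNA transcription (chromosome 18, 60813755 to 60848971), and had 315, 288 and 306 CPM in sgp53 lines 1, 2 and 3, against 231, 223 and 228 CPM in sgNTC lines 1, 2 and 3. Every sgp53 library was higher than every sgNTC library, and the rise was one of the 2 called with the line as a block (log2 fold change 0.41 with an SE of 0.05, edgeR adjusted p = 0.0136, and 0.048 with the line as a block). Ubtf, which encodes the factor UBF that binds the ribosomal DNA promoter, had 247, 246 and 213 CPM in the sgp53 libraries, against 245, 260.0 and 245 CPM in the sgNTC libraries. Its log2 fold change of -0.09 was the lowest of the 40 genes, and it was not called (edgeR adjusted p = 0.469). Rrn3, which makes the polymerase ready to start, averaged 158 ± 7.04 CPM in sgp53 and 157 ± 4.75 CPM in sgNTC, and Taf1d, a subunit of the promoter factor SL1, averaged 60.4 ± 4.14 CPM in sgp53 and 56.7 ± 2.44 CPM in sgNTC. Neither was called, at edgeR adjusted p of 0.94 and 0.436. Ncl, nucleolin, had 2296, 1893 and 2339 CPM in the sgp53 libraries, against 1807, 2421 and 1976 CPM in the sgNTC libraries. The sgp53 library of line 2 was below its sgNTC library for Ncl, while lines 1 and 3 went the other way, and Ncl was not called (edgeR adjusted p = 0.741).

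Both families of snoRNP held a called gene, 1 of 4 box C/D and 1 of 3 box H/ACA genes, beside 2.76% of all tested genes. Fbl, the fibrillarin methyltransferase of box C/D snoRNPs (chromosome 7, 28169710 to 28179269), had 211, 199 and 184 CPM in sgp53 lines 1, 2 and 3, against 158, 144 and 141 CPM in sgNTC lines 1, 2 and 3. The groups did not overlap, and the means were 198 ± 13.3 CPM in sgp53 and 148 ± 9.55 CPM in sgNTC (SD, n = 3 each; log2 fold change 0.42 with an SE of 0.07, edgeR adjusted p = 0.0294, and 0.0475 with the line as a block). Its core partners were not called. Nop56 averaged 356 ± 37.7 CPM in sgp53 and 299 ± 15.9 CPM in sgNTC, with groups apart but an edgeR adjusted p of 0.124. Nop58, the other core protein, averaged 372 ± 21.4 CPM in sgp53 and 375 ± 20.3 CPM in sgNTC (edgeR adjusted p = 0.927). Nolc1, a chaperone of snoRNPs, had 438, 392 and 417 CPM in the sgp53 libraries, against 392, 330.4 and 336 CPM in the sgNTC libraries, where sgNTC line 1 reached the lowest sgp53 library (edgeR adjusted p = 0.128).

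Gar1, a core protein of the box H/ACA snoRNPs that guide pseudouridylation (chromosome 3, 129824912 to 129831396), had 77.1, 76.7 and 74.9 CPM in the sgp53 libraries, against 61.3, 59.7 and 60.1 CPM in the sgNTC libraries. The libraries of each group lay close together for Gar1, and the groups were apart (log2 fold change 0.34 with an SE of 0.05, edgeR adjusted p = 0.0193, and 0.0682 with the line as a block). Dkc1, the pseudouridine synthase of the same particles (chromosome X, 75095854 to 75109777), had 215, 183 and 244 CPM in the sgp53 libraries, against 161, 168 and 165 CPM in the sgNTC libraries. Its sgp53 libraries were all higher but spread widely, with line 2 lowest, and it was not called (log2 fold change 0.38 with an SE of 0.10, edgeR adjusted p = 0.076). Nhp2, the third of these proteins, averaged 141 ± 7.50 CPM in sgp53 and 126 ± 3.34 CPM in sgNTC (edgeR adjusted p = 0.123). All 3 box H/ACA genes had groups that did not overlap. With sgp53 higher, this held for 26 of the 40 and 17.8% of all tested genes.

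The small subunit processome, which binds the nascent precursor, and small subunit assembly held 4 called genes of 11. Of all tested genes 2.76% were called higher, and with the line as a block 0 of the 11 were called. Rrp9, a protein of the U3 snoRNP (chromosome 9, 106475963 to 106485424), had 87.4, 72.9 and 94.2 CPM in sgp53 lines 1, 2 and 3, against 63.9, 57.3 and 60.0 CPM in sgNTC lines 1, 2 and 3. Its log2 fold change was the highest of the 40, and its sgp53 libraries were also the most spread, relative to their mean, of the 4 (log2 fold change 0.49 with an SE of 0.10, edgeR adjusted p = 0.0474, and 0.0671 with the line as a block). Heatr1, needed for ribosomal DNA transcription and early processing (chromosome 13, 12395027 to 12440289), had 239, 208 and 256 CPM in the sgp53 libraries, against 174, 175 and 176 CPM in the sgNTC libraries. The 3 sgNTC libraries were nearly level for Heatr1, and sgp53 line 2 was the lowest of the higher group (log2 fold change 0.42 with an SE of 0.08, edgeR adjusted p = 0.0366, and 0.0743 with the line as a block). Nop14, a processome component (chromosome 5, 34638536 to 34660148), averaged 151 ± 9.68 CPM in sgp53 and 115 ± 5.47 CPM in sgNTC (SD, n = 3 each), from 152, 141 and 161 CPM in the sgp53 libraries, against 122, 112 and 113 CPM in the sgNTC libraries. Wdr43, of the same early-binding subcomplex as Heatr1 (chromosome 17, 71615895 to 71659031), had 332, 279.8 and 313 CPM in the sgp53 libraries, against 249, 228 and 230.4 CPM in the sgNTC libraries. Neither gene had overlapping groups, with edgeR adjusted p of 0.0286 for Nop14 and 0.0409 for Wdr43, and 0.0676 and 0.0629 with the line as a block.

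The 7 uncalled genes of this role all had fold changes above 0. Of the processome components, Utp18 averaged 88.9 ± 3.79 CPM in sgp53 and 73.5 ± 4.93 CPM in sgNTC and Noc4l 113 ± 8.65 CPM in sgp53 and 92.9 ± 3.51 CPM in sgNTC, with edgeR adjusted p of 0.0656 and 0.0668 and groups apart in both. Wdr75 and Utp15, which belong to the early-binding subcomplex with Heatr1 and Wdr43, also had groups apart, at log2 fold changes of 0.24 and 0.11. Rrp12 and Bysl, of late small subunit assembly, had overlapping groups, at log2 fold changes of 0.24 and 0.16. Utp20, another large component, had 283, 233 and 303 CPM in the sgp53 libraries, against 271, 284 and 254 CPM in the sgNTC libraries. Its sgp53 library of line 2 was the lowest of all 6 and that of line 3 the highest (edgeR adjusted p = 0.924).

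For the large subunit, 1 of the 3 genes of the PeBoW complex was called, beside 2.76% of all tested genes. This complex of Pes1, Bop1 and Wdr12 is needed to process the precursor into the large subunit RNAs. Pes1 (chromosome 11, 3963975 to 3980004) had 212, 188 and 202 CPM in the sgp53 libraries, against 168, 154 and 158 CPM in the sgNTC libraries, with groups apart (log2 fold change 0.33 with an SE of 0.06, edgeR adjusted p = 0.038, and 0.0659 with the line as a block). Bop1 (chromosome 15, 76452989 to 76477277) had 185, 162 and 157 CPM in the sgp53 libraries, against 138, 132 and 141 CPM in the sgNTC libraries. Its groups were also apart, with a wider spread among its sgp53 libraries, and it was not called (log2 fold change 0.29 with an SE of 0.08, edgeR adjusted p = 0.0678). Wdr12 averaged 107 ± 6.98 CPM in sgp53 and 96.0 ± 7.76 CPM in sgNTC with overlapping groups (edgeR adjusted p = 0.247).

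Of the other 10 large subunit and nucleolar genes, 3 were called, beside 2.76% of all tested genes, and 0 with the line as a block. Noc2l, whose yeast counterpart acts in early large subunit assembly (chromosome 4, 156236010 to 156247616), had 183, 187 and 188 CPM in sgp53 lines 1, 2 and 3, against 143, 143 and 140.2 CPM in sgNTC lines 1, 2 and 3. The libraries within each group were nearly level, and it had the smallest adjusted p of the 40 (log2 fold change 0.39 with an SE of 0.04, edgeR adjusted p = 0.0101, and 0.0501 with the line as a block). Nip7, known from yeast for its part in large subunit assembly (chromosome 8, 107056877 to 107060931), had 107, 99.5 and 106 CPM in the sgp53 libraries, against 86.3, 80.9 and 79.2 CPM in the sgNTC libraries. Npm1, the abundant nucleolar chaperone nucleophosmin (chromosome 11, 33152287 to 33163206), had 2067, 1766 and 2045 CPM in the sgp53 libraries, against 1546, 1577 and 1495 CPM in the sgNTC libraries. Both had groups apart, with edgeR adjusted p of 0.0294 for Nip7 and 0.0462 for Npm1, and 0.0706 and 0.106 with the line as a block. Within lines 1, 2 and 3 the log2 difference of Npm1 was 0.42, 0.16 and 0.45, so it was smallest in line 2.

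Ddx21, an RNA helicase of the nucleolus, had 692, 599 and 717 CPM in the sgp53 libraries, against 523, 568 and 546 CPM in the sgNTC libraries. Its groups were apart, and it was not called (log2 fold change 0.30 with an SE of 0.08, edgeR adjusted p = 0.0756). Rrp1b and the assembly factors Nop16 and Rrs1, both known from yeast, likewise had groups apart without a call, with log2 fold changes of 0.27, 0.24 and 0.26 and edgeR adjusted p between 0.0583 and 0.0985. Gnl3, the GTPase nucleostemin, averaged 195 ± 19.6 CPM in sgp53 and 160.5 ± 15.0 CPM in sgNTC with groups apart and an edgeR adjusted p of 0.127. Noc3l and Nop2, of which Nop2 is an RNA methyltransferase, had overlapping groups, with log2 fold changes of 0.20 and 0.07. Over the 40 genes, 8 had an edgeR adjusted p between 0.0583 and 0.0985, all of them higher in sgp53, with log2 fold changes of 0.24 to 0.38.

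**Figure D2:**
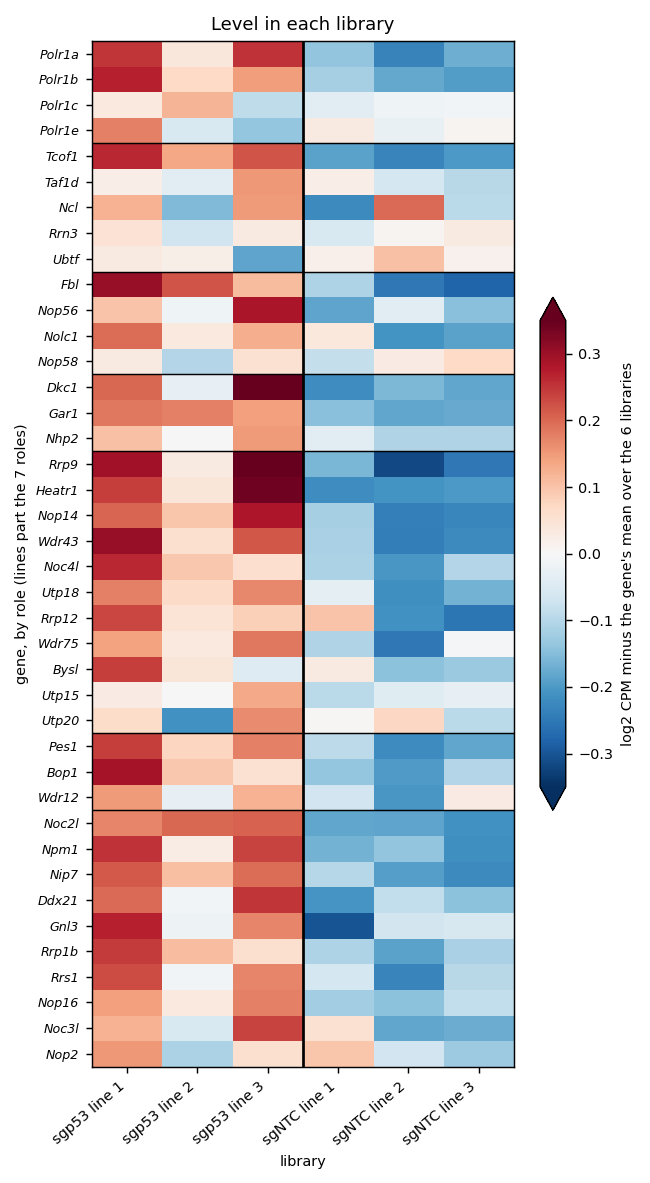
Level of each of the 40 genes in each of the 6 libraries, as log2 CPM minus the mean of that gene over the libraries (red, above; blue, below), with the sgp53 libraries left of the sgNTC libraries and black lines between roles. Most rows are red on the left and blue on the right; sgp53 line 2 is the palest of the sgp53 libraries, and Ncl, Ubtf and Utp20 are among the 14 genes whose groups overlap.

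The size of the difference varied with the line. The median log2 CPM difference of the 40 genes was 0.30, 0.21 and 0.29 within lines 1, 2 and 3, where all tested genes had medians of -0.01, 0.00 and -0.01. Of the 40, 39 were above 0 in line 1, 33 in line 2 and 35 in line 3, and 31 were above 0 in all 3 lines. Of the 13044 tested genes, 6289, 6531 and 6380 were above 0 in lines 1, 2 and 3, and 3285 in all 3 lines. The sgp53 library of line 2 was the lowest of the 3 sgp53 libraries for 30 of the 40 genes, and that of line 1 was the highest for 22 and that of line 3 for 17. The within-line difference was smallest in line 2 for 22 of the 40 genes, in line 3 for 11 and in line 1 for 7. Line 2 is the one labelled functionally inactive and not null, and whether this bears on the differences was not tested. For Trp53 itself the log2 CPM difference was -1.54, -1.94 and -1.16 in lines 1, 2 and 3. With 1 library per line and guide, differences between lines could not be tested.

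**Figure D3:**
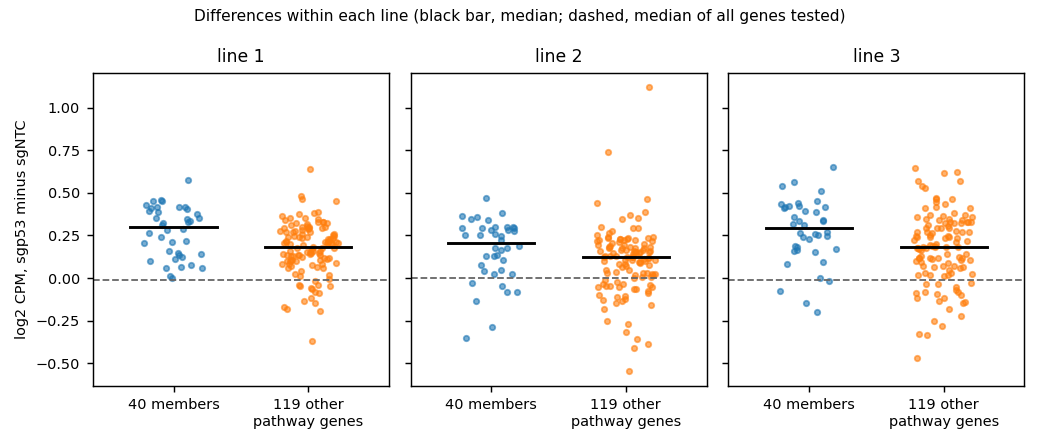
Difference in log2 CPM, sgp53 minus sgNTC, within each line for the 40 genes and for 119 other genes of the pathway (points), with the median of each set as a black bar and that of all tested genes as a dashed line. The medians of the 40 genes are 0.30, 0.21 and 0.29 in lines 1, 2 and 3 and those of the 119 genes 0.18, 0.12 and 0.18.

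Other genes of the pathway were also mostly above 0. Of 119 further genes for polymerase I subunits, snoRNP proteins and assembly factors, all of them tested, 6 were called higher and 0 lower, beside 2.76% and 3.69% for the whole table. At an unadjusted p under 0.05, 56 of the 119 were higher and 4 lower, beside 13.9% and 15.1% for the whole table. DESeq2 called 39 of them higher, beside 9.17%. Their median log2 fold change was 0.17, and 62 had groups apart with sgp53 higher and 6 with sgp53 lower, beside 17.8% and 19.0% for the whole table. With the line as a block 0 of them were called, and 0 were called without sgp53 line 1, sgp53 line 3, sgNTC line 2 or sgNTC line 3.

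The called genes among them were assembly factors, which is the role of most of the 119 genes. Of all tested genes 2.76% were called higher, and the 2 of 51 for the large subunit lie near that share. For the small subunit, 4 of 45 were called: the RNA helicase Ddx49, which had 52.8, 47.9 and 52.5 CPM in the sgp53 libraries, against 38.5, 37.5 and 37.8 CPM in the sgNTC libraries (log2 fold change 0.43 with an SE of 0.06, edgeR adjusted p = 0.0202, and 0.0655 with the line as a block), and 3 more. Pwp2 averaged 116 ± 7.49 CPM in sgp53 and 90.8 ± 1.59 CPM in sgNTC and Wdr3, its partner in the same processome subcomplex, 134 ± 5.86 CPM in sgp53 and 105 ± 6.44 CPM in sgNTC (edgeR adjusted p = 0.0313 and 0.0327; 0.0782 and 0.0599 with the line as a block). The fourth was Fcf1, a nuclease that cuts the precursor, at a log2 fold change of 0.36. For the large subunit, 2 of 51 were called: Ebna1bp2 averaged 181 ± 19.9 CPM in sgp53 and 133 ± 3.79 CPM in sgNTC and the GTPase Gtpbp4 156 ± 8.48 CPM in sgp53 and 128 ± 3.86 CPM in sgNTC (edgeR adjusted p = 0.0389 and 0.0467; 0.0728 and 0.0827 with the line as a block). Of 13 further polymerase I subunits and factors 0 were called, with 1 higher and 1 lower at an unadjusted p under 0.05 (13.9% and 15.1% of all tested genes) and 1 called higher by DESeq2 (9.17%). Polr2e, which all nuclear RNA polymerases share, had 148, 135 and 159 CPM in the sgp53 libraries, against 136, 140.0 and 129.6 CPM in the sgNTC libraries, and the groups overlapped. Of 10 further snoRNP proteins and assembly factors 0 were called, with 5 higher and 1 lower at an unadjusted p under 0.05 and 3 called higher by DESeq2, against the same shares of all tested genes. The ATPase Ruvbl2, which helps assemble snoRNPs, had 269.9, 256 and 242 CPM in the sgp53 libraries, against 211, 222 and 217 CPM in the sgNTC libraries, with groups apart and an edgeR adjusted p of 0.0577.

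Rn45s stands for the ribosomal RNA precursor that polymerase I makes. It had 706, 636 and 3338 CPM in sgp53 lines 1, 2 and 3, against 790.0, 669 and 864 CPM in sgNTC lines 1, 2 and 3. The sgp53 library of line 3 stood apart, the other 5 overlapped, and Rn45s was not called (log2 fold change 1.01 with an SE of 0.64, edgeR adjusted p = 0.342). Without that library its log2 fold change was -0.21, and the median of the 40 genes was 0.25. How much ribosomal RNA was removed in library preparation is not stated in the labels, so Rn45s is no measure of transcription by the polymerase.

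**Figure D4:**
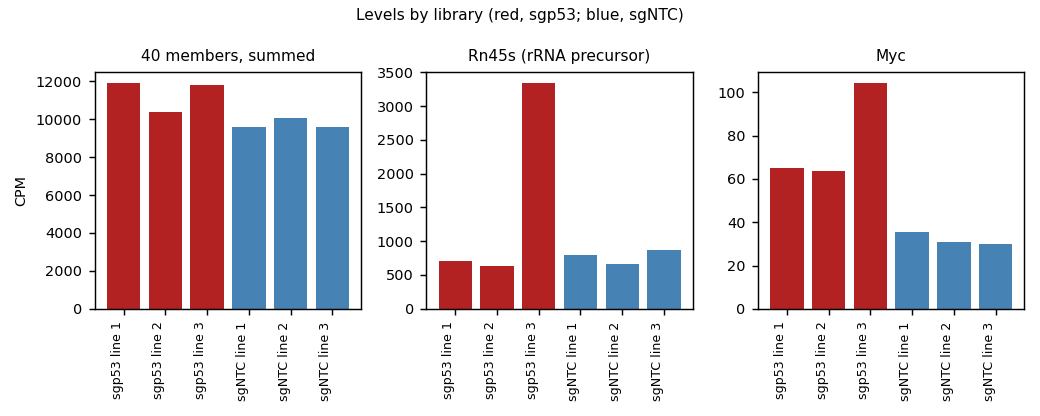
CPM by library, summed over the 40 genes (left), of Rn45s (middle) and of Myc (right), with sgp53 libraries in red and sgNTC libraries in blue. The sums and Myc are higher in each sgp53 library than in any sgNTC library; Rn45s is high in sgp53 line 3.

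The promoters of the 40 genes were searched for an E-box, CACGTG, since MYC, a transcription factor known to drive this pathway, binds it. Myc itself had 64.9, 63.6 and 104 CPM in sgp53 lines 1, 2 and 3, against 35.4, 30.9 and 29.8 CPM in sgNTC lines 1, 2 and 3, and was higher in every sgp53 library (log2 fold change 1.28 with an SE of 0.21, edgeR adjusted p = 0.0249, and 0.0655 with the line as a block). Its adjusted p ranged from 1.38e-07 to 0.111 over the 17 alternatives, and its call was lost without sgp53 line 1, without sgNTC line 2 or 3, and without any 1 line. RefSeq promoter windows on GRCm38.p6, from 250 bases before to 50 after a gene's start, were matched by symbol for 34 of the 40 genes. CACGTG, which reads the same on both strands, was in the windows of 6 of the 34 (17.6%), and of 8.09% of all 27025 genes in the promoter table. A gene was counted if any of its windows held the motif. That table also holds genes that were not tested here, so its share is not one of expressed genes. In the bases before the RefSeq start alone it was in 3 of 34 (8.82%) and 6.86%. Of the 6 genes 2 were called higher, and of the 28 genes without it 8 were. Whether MYC has a part in the change of the 40 genes was not tested. The 7 matches are shown with up to 12 bases on each side, with the E-box in capitals and each on the strand of its gene. These 6 genes are shown because they hold the E-box, and most of the 34 promoters lack it. The matches of Nop2 (chr6:125131811-125131840, plus strand), Utp18 (chr11:93885769-93885798, minus strand) and Rrn3 (chr16:13780472-13780501 and chr16:13780639-13780668, plus strand) lie before the RefSeq start of the gene. Those of Pes1 (chr11:3963965-3963994, plus strand), Wdr43 (chr17:71616220-71616249, plus strand) and Utp20 (chr10:88826765-88826789, minus strand) begin 3, 18 and 38 bases into the gene, counted with the RefSeq start as base 1. These RefSeq starts can differ from the GENCODE gene positions given above, as for Wdr43, whose GENCODE start lies further upstream.
Nop2: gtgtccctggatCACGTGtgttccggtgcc
Utp18: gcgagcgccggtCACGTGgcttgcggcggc
Rrn3, far site: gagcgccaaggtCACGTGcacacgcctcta
Rrn3, near site: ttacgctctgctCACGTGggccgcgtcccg
Pes1: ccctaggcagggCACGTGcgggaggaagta
Wdr43: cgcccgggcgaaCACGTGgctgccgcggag
Utp20: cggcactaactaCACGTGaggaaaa
A match is a run of letters and not a shown binding site. Of the genes shown, Pes1 and Wdr43 were called higher, and Nop2, Utp18, Rrn3 and Utp20 were not called.

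Whether the counting used strand is not known, so reads from genes that overlap on opposite strands cannot be told apart. In GENCODE vM21, 13 of the 40 genes share exon bases with a protein-coding gene on the other strand, and 0 on the same strand. The share was over 5% of exon bases in 2 genes. Noc2l shares 20.9% with Samd11, which had 1 to 7 counts per library, and Bysl shares 9.37% with Ccnd3, which had 109, 107 and 115 CPM in the sgp53 libraries, against 98.6, 109.7 and 102 CPM in the sgNTC libraries. In the other 11 genes it was at most 4.56%.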

How the data were processed

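The authors' deposited table holds raw read counts per gene symbol, 1 column per library, with no normalization. CASAVA 1.8, STAR, DESeq2 and the build mm10 are listed, without roles, in the submitters' processing notes. Which program counted reads, with which annotation and strand option, is not given in the sources used here. Per the labels, RNA had an integrity number above 8.0 and 1 µg went into a stranded TruSeq kit.

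From the counts, edgeR 4.0.16 in R 4.3.3 gave TMM-normalized CPM and quasi-likelihood F-tests of sgp53 against sgNTC, after filterByExpr on the 2 groups, with p-values adjusted over all 13044 genes tested. SE is the size of the log2 fold change divided by the square root of F. Within-line differences use log2 CPM with a prior count of 2. The unblocked fit had 4 residual degrees of freedom. Both libraries of a line number come from the same line per the labels, so the line pairs them, although their deviations from group means correlated at only 0.089, 0.0018 and -0.027 in lines 1, 2 and 3; the blocked fit had 2 residual degrees of freedom. DESeq2 1.42.0, limma-voom (limma 3.58.1), other scalings, no filter and left-out libraries were alternatives. The p-values measure the spread between lines, and the labels do not say whether these came from separate embryos; the sample descriptions of lines 2 and 3 share a number that line 1 lacks, so some lines may be closer kin. For 1 gene, the smallest p that an exact permutation test of 3 against 3 libraries allows is 0.1. The scripts were tested on simulated counts. No pair of libraries in a group agreed within sampling noise (chi-square per degree of freedom 21.8 to 58.01).

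The 40 members, the role lists and the 119 other genes (11 found under older symbols) were chosen with earlier results of these data known. Values in every library are given for each called member, for the uncalled member of highest mean in each role and for the extremes; of each other list, up to 3 called genes, or the gene of highest mean where none was called, are named. Trp53, Rn45s and Myc are named beside the lists. Fcf1, Samd11 and Ccnd3 were named after their values were seen. Gene positions are from GENCODE vM21 on GRCm38, the assembly mm10 denotes.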

Additional observations from a re-analysis of the deposited data

Results flagged for a closer look

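Ncl and Utp20 moved in opposite directions in different lines, by over 0.2 in log2 CPM each way; the difference between lines was not tested. For Ncl the log2 CPM difference of sgp53 from sgNTC was 0.35, -0.35 and 0.24 in lines 1, 2 and 3, which gives 0.70 between the highest and the lowest line. For Utp20 it was 0.06, -0.28 and 0.26, or 0.54 between them. In both genes line 2 was the one below 0.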

How the results depend on the processing

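The 40 genes had a median log2 fold change above 0 in all 17 alternatives, from 0.22 to 0.31. With the line as a replicate block, 2 of the 40 were called higher (Fbl and Tcof1), 0 of the 119 other pathway genes, and 126 genes higher and 185 lower over the whole table; the block made no new call among the 40. DESeq2 called 21 of the 40, 39 of the 119, and 1195 higher and 1172 lower. Upper-quartile scaling called 14 of the 119. Other scalings, no filter, limma-voom and the totals without Rn45s (chosen after seeing the data) called 11 to 13 of the 40. Leaving out 1 library or 1 line, the members called ranged from 0 to 10, the other pathway genes called from 0 to 6, all genes called higher from 4 to 251 and lower from 15 to 449; the fits without a whole line have 2 libraries per group. CACGTG was in 3 of the 34 promoters before the RefSeq start alone (also chosen after seeing the data).

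Of the 40 genes, 6 near 0 changed sign, as did Rn45s (log2 fold change 1.01 with all libraries), with no call of these 7 under any setting. Polr1e was at 0.0040 with RLE size factors, 0.014 with upper-quartile scaling, 0.0038 in DESeq2 and, with libraries or lines left out, at -0.10 to 0.063. Rrn3 was at -0.037 and Utp20 at -0.028 with library totals only, and Nop58 at 0.0057 with upper-quartile scaling. With libraries or lines left out, the log2 fold change lay from -0.0016 to 0.11 for Polr1c, -0.039 to 0.060 for Rrn3, -0.055 to 0.30 for Ncl, -0.072 to 0.057 for Nop58, -0.11 to 0.17 for Utp20 and -0.21 to 1.39 for Rn45s.

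Counts of the 40 genes ran from 1228 to 68109 per library, while every test rests on at most 3 lines.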
